A study of Mus musculus with 14 samples.

Results

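The 10 genes described here encode Kruppel-like factors: Klf3, Klf5, Klf6, Klf7, Klf8, Klf9, Klf12, Klf13, Klf15 and Klf16. They were picked by gene name, with Klf13 as the lead gene, from 55401 genes listed in a count table of mouse neurons, and all 10 were among the 14599 genes with enough counts to be tested. The choice was made with results from all 14 libraries in view, so the levels and calls below are a description and do not serve as independent support. Klf1, Klf2, Klf4, Klf10, Klf11, Klf14 and Klf17, the other genes of the family in the table, were not among those picked. RNA was sequenced from neurons of the area labelled PiC in wild-type C57BL/6 mice, after a retrograde virus, AAVretro-EGFP, had been placed in PrL or in MeA (0.1 µl per injection), so that EGFP marked the PiC cells projecting there. Each library came from 1 tube of 4 to 5 EGFP-labelled cells drawn into a micropipette and amplified with SMART-Seq2, which copies polyadenylated RNA over its full length. Cells projecting to PrL (PiC-PrL) were taken in 4 tubes from females and 4 from males, and cells projecting to MeA (PiC-MeA) in 3 tubes from each sex. All 4 groups carried the virus, and the labels name no other treatment. The sources used here give neither ages nor whether tubes came from separate animals, and p-values then measure only the spread between tubes. The label marks cells by their projection, not by a cell type, so a tube may mix neuron types.

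Kruppel-like factors are transcription factors whose zinc fingers at the carboxyl end bind GC-rich boxes and CACCC boxes in promoters and enhancers, the same kind of site that Sp factors bind. The family is usually divided by the partners of the less conserved amino-terminal part: Klf9, Klf13 and Klf16 recruit the Sin3 corepressor, Klf3, Klf8 and Klf12 recruit the corepressor CtBP, and Klf5, Klf6 and Klf7 act mainly as activators. In neurons the family is known for control of axon growth and for links to thyroid hormone and glucocorticoids, which induce Klf9.

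Because the factors bind GC boxes and CACCC boxes and several family genes carry such boxes themselves, the bases before the start of the 3 members with the highest level per length are shown. Each run is the 250 bases upstream of the RefSeq start, 5′ to 3′ on the strand of the gene, in the build GRCm38.p6 (mm10). Capitals mark GC boxes (GGGCGG or its complement CCGCCC) and CACCC boxes (CACCC or its complement GGGTG), which overlap where they share a base.
Klf13: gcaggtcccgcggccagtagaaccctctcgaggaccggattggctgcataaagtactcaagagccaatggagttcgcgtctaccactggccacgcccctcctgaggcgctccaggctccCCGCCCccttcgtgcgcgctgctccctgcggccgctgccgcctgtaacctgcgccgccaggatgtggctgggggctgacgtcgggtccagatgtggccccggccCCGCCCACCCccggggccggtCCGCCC
Klf9: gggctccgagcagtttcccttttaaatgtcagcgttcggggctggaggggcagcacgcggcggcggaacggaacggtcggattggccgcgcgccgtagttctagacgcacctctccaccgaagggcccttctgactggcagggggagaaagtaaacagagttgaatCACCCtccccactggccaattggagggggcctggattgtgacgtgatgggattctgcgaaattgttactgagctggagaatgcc
Klf6: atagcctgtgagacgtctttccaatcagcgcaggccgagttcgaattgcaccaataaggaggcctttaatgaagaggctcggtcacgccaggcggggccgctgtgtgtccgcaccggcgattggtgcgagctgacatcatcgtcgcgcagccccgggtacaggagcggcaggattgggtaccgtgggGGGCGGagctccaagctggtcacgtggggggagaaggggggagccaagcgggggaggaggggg
The run of Klf13 lies at chr7:63938916-63939165 on the minus strand, that of Klf9 at chr19:23140976-23141225 on the plus strand and that of Klf6 at chr13:5861239-5861488 on the plus strand. Klf13 had 3 GC boxes and 1 CACCC box, the latter overlapping a GC box. Klf9 had no GC box and 1 CACCC box, and Klf6 had 1 GC box and no CACCC box. Of 32851 upstream windows of the same length in the RefSeq table, 32.7% held a GC box and 52% a CACCC box. For 8 of the 10 members a window was matched, and Klf3 had the most GC boxes among them (6) and a GC content of 78.4%, against 71.6% for Klf13 and a median of 52.4% over all windows. A match describes the letters in the window and does not show a bound site.

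Total counts ran from 6132985 to 15392217 per library. The 3 male PiC-MeA libraries stood apart, with 18964 to 20014 genes at 1 count or more against 12479 to 14908 in the other 11. They were also the 3 of lowest depth, with 6132985 to 10572618 counts against at least 11755389. They held 10 counts or more for 9 to 10 of the Kruppel-like factor genes, against 6 to 9 in the others. Of the neuronal markers, Snap25, Syt1, Rbfox3 and Stmn2 were counted while Tubb3 was listed at 0 in every library. In tubes of a few cells, fewer cells of a type and less RNA per cell cannot be told apart.

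Klf13 was the most abundant of the 10 genes. Levels between genes are compared here as CPM (counts scaled to library size with edgeR's TMM factors) per kilobase of annotated exon. The median of Klf13 over the 14 libraries was 117 CPM per kb (range 15.6 to 325), followed by Klf9 at 28.5 and Klf6 at 22.9 CPM per kb. Klf16 (9.29), Klf7 (5.93) and Klf12 (5.84) formed a middle set, and Klf3 (0.381), Klf5 (0.242), Klf8 (0.0577) and Klf15 (0.0259) had medians under 1 CPM per kb. Klf13 exceeded Klf9 in 13 of 14 libraries, the exception being male PiC-MeA replicate 3. Klf9 exceeded Klf6 in only 8 libraries, Klf16 exceeded Klf7 in 7 and Klf7 exceeded Klf12 in 6, so these neighbours in the order did not differ beyond their spread. The break below Klf12 was wider, since Klf12 exceeded Klf3 in all 14 libraries. Klf6, Klf7, Klf9 and Klf13 had at least 10 counts in all 14 libraries, Klf12 and Klf16 in 13, Klf5 in 9, Klf3 in 8, Klf8 in 6 and Klf15 in 5.

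**Figure D1:**
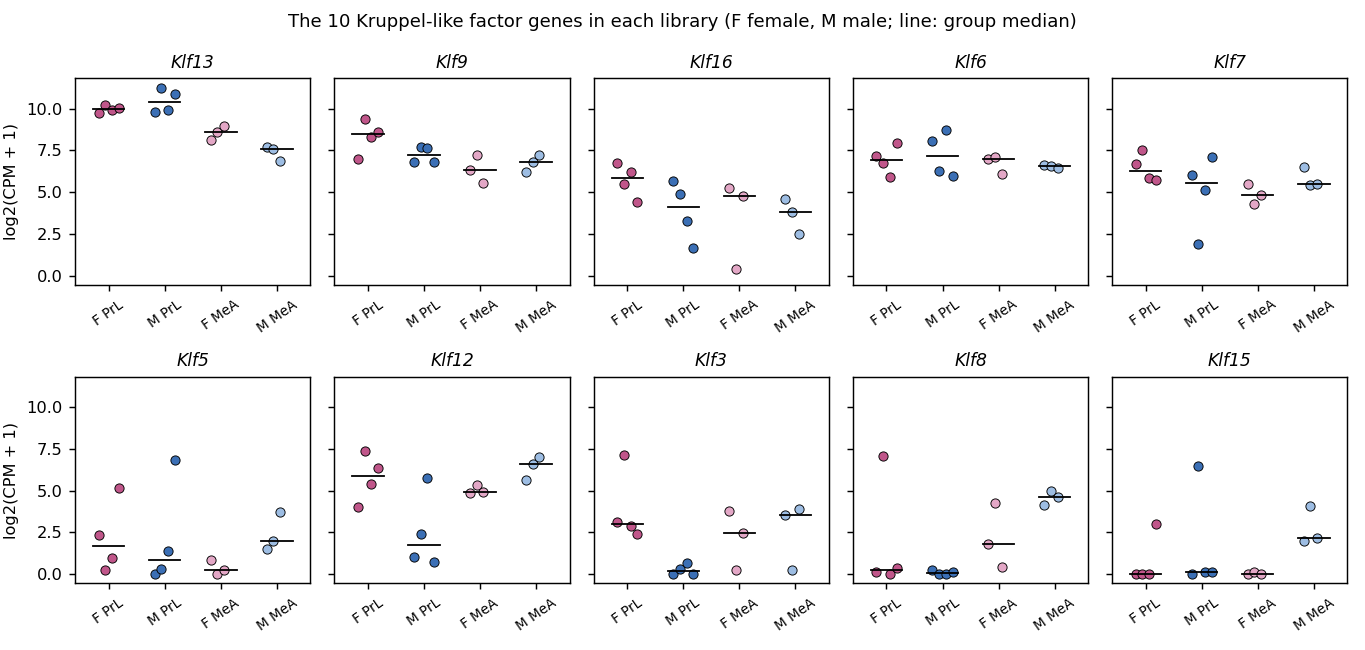
Level of each of the 10 genes in every library as log2(CPM + 1), 1 point per library, with the group median as a line; F and M are female and male, PrL and MeA the projections. Klf13 points of both PiC-MeA groups lie below those of both PiC-PrL groups, while Klf3, Klf5, Klf8 and Klf15 are near 0 in many libraries and high in a few.

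Klf13, a GC-box factor known from late activation of chemokine expression in T cells and from heart development, differed most plainly with the projection. The gene lies on chromosome 7 (63886351 to 63938915, minus strand). In female PiC-PrL replicates 1 to 4 Klf13 stood at 876, 1184, 961 and 1048 CPM, and in male PiC-PrL replicates at 891, 2451, 991 and 1920 CPM. In female PiC-MeA replicates 1 to 3 it stood at 276, 387 and 499 CPM, and in male PiC-MeA replicates at 210, 191 and 118 CPM. Every PiC-PrL library was above every PiC-MeA library, and every female PiC-MeA library was above every male one, while the ranges of male and female PiC-PrL libraries overlapped. For PiC-PrL the mean was 1017 ± 132 CPM (SD, n = 4) among females and 1563 ± 752 CPM (SD, n = 4) among males. For PiC-MeA it was 387 ± 112 CPM (SD, n = 3) among females and 173 ± 48.8 CPM (SD, n = 3) among males.

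The fitted log2 change of Klf13 from PiC-PrL to PiC-MeA was -2.28 ± 0.27 (SE) averaged over the sexes, a 4.84-fold lower level. Within females it was -1.39 ± 0.37 (2.63-fold) and within males -3.16 ± 0.40 (8.94-fold). By edgeR's quasi-likelihood test over all 14599 genes, the averaged and the male difference of Klf13 passed an adjusted p of 0.05 and the female one did not. That made 1 of 10 genes in each of the former contrasts, where 0.822% and 0.603% of all genes passed in either direction and 0.63% and 0.534% passed as lower in PiC-MeA, and 0 of 10 in the female contrast, where 0% passed. At an unadjusted p under 0.05 there were 2 of 10 in the female contrast, 3 of 10 in the male one and 2 of 10 averaged, beside 11.1%, 22.2% and 17.4% of all genes. The DESeq2 Wald test, the other tool run, gave no adjusted p for Klf5 and Klf15. Of the other 8 genes it called Klf9 and Klf13 in females, Klf3, Klf8 and Klf13 in males, and Klf9 and Klf13 averaged, where it called 4.59%, 14.8% and 10.9% of all genes with an adjusted p. Of all genes tested, 0.61% were lower in every PiC-MeA than in every PiC-PrL library, 6.33% were so among males and 3.97% among females. These are the contrasts in which Klf13 was noticed, and nothing is read from the counts.

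**Figure D2:**
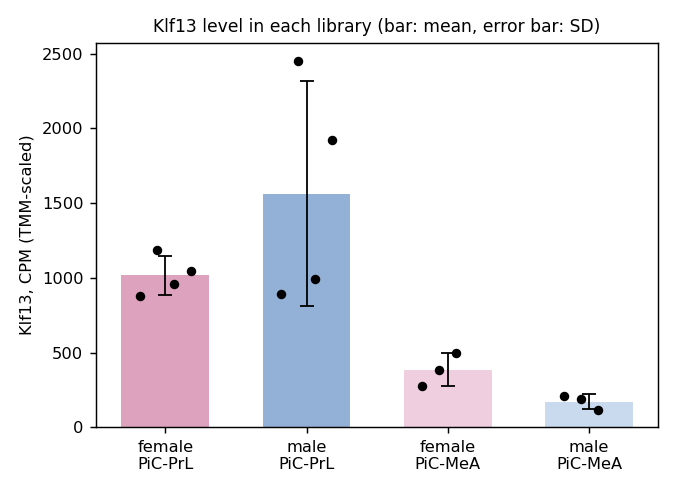
Klf13 level in TMM-scaled CPM in each library (points), with the group mean (bar) and SD (error bar). The 8 PiC-PrL points lie between 876 and 2451 CPM and the 6 PiC-MeA points between 118 and 499 CPM.

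Other measures moved with the projection beside Klf13. The summed level of 5 pan-neuronal markers was 10090 to 20024 CPM in PiC-PrL and 6667 to 9953 CPM in PiC-MeA libraries. These sums rest on TMM factors of 0.743 to 1.057 in PiC-PrL and 1.032 to 1.211 in PiC-MeA libraries. Snap25, a protein of synaptic vesicle release and the most abundant of these markers, had a log2 change of -0.86 ± 0.18 averaged over the sexes (edgeR adjusted p = 0.0363). Its levels overlapped, at 6270 to 16515 CPM in PiC-PrL and 4193 to 7477 CPM in PiC-MeA libraries. Per 100 counts of Snap25 in the same library, Klf13 had 8.89, 9.82, 8.29 and 16.7 counts in female PiC-PrL and 8.88, 17.4, 7.95 and 11.6 in male PiC-PrL replicates. It had 3.69, 5.3 and 9.67 in female PiC-MeA and 5.01, 2.66 and 1.8 in male PiC-MeA replicates. On this ratio 5 of the 6 PiC-MeA libraries stayed below all 8 PiC-PrL libraries, and female PiC-MeA replicate 3 lay inside their range. The number of genes with a count ran from 13672 to 14908 in female PiC-MeA and overlapped the 12479 to 14440 of PiC-PrL libraries. Summed astrocyte markers (6 genes) were 262 to 387 CPM in female PiC-MeA, with Aqp4 and Gjb6 at 0, 967 to 1129 CPM in male PiC-MeA and 567 to 1411 CPM in PiC-PrL libraries. Summed inhibitory neuron markers (6 genes) ranged from 35.6 to 1375 CPM in PiC-MeA and from 99.6 to 5239 CPM in PiC-PrL libraries. The other summed marker ranges in PiC-MeA and PiC-PrL libraries were 753 to 1990 and 905 to 1556 CPM for 5 excitatory neuron markers, 327 to 2307 and 331 to 2156 CPM for 5 oligodendrocyte markers, and 36.6 to 146 and 24.4 to 346 CPM for 5 microglia markers, of which P2ry12 was at 0 throughout. The 3 oligodendrocyte precursor markers summed to 0 to 36.4 CPM in PiC-MeA and 0 to 103 CPM in PiC-PrL libraries. The 6 endothelial and mural markers summed to 0.377 to 90.9 and 0.562 to 139 CPM, with Cldn5 at 0 throughout. Of these, Flt1, Pdgfrb and Pecam1 were higher in every male PiC-MeA library than in every other library. Pdgfrb was at 3.26 to 10.7 CPM there and at most 0.21 CPM elsewhere, and Pecam1 at 2.08 to 6.23 and at most 1.1 CPM. Flt1 was at 4.22 to 38.5 CPM in male PiC-MeA libraries. Rgs5, at up to 137 CPM in PiC-PrL libraries, overlapped, and Vtn had counts in only 1 library. Mitochondrial genes took 4.8%, 9.23% and 15.3% of the counts in male PiC-MeA replicates 1 to 3, 3.29% to 3.95% in female PiC-MeA and 3.81% to 12.2% in PiC-PrL libraries. The part of these lists, of depth and of the mitochondrial share in the Klf13 difference was not tested.

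Within a library, the share of Klf13 among the counts of the 10 genes does not depend on scaling between libraries. Klf13 held 63.6%, 45.1%, 63.2% and 55.8% of these counts in female PiC-PrL replicates and 64.4%, 85.7%, 58% and 81.9% in male PiC-PrL replicates. Its share was 45.5%, 51.5% and 71.6% in female PiC-MeA replicates and 36.8%, 32.1% and 20.2% in male PiC-MeA replicates. Wilson 95% intervals of these shares, which cover counting error only, were at most 2.46 percentage points wide. Male PiC-MeA libraries were below all 11 others on this share, while female PiC-MeA and female PiC-PrL libraries overlapped. Counts of the 10 genes together, Klf13 included, ran from 17159 to 35142 in PiC-PrL and from 4106 to 10879 in PiC-MeA libraries. Unlike the share, these sums depend on depth, which was 12077736 to 15392217 counts in PiC-PrL and 6132985 to 13818625 in PiC-MeA libraries. In male PiC-MeA replicate 3 Klf9 took 25.8% of the counts and was the highest gene of the 10, the exception among the libraries.

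**Figure D3:**
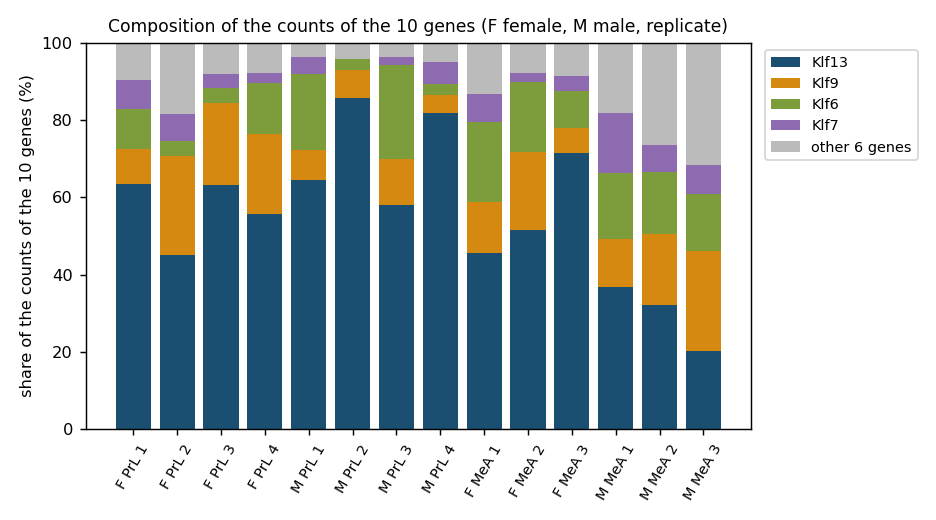
Share of Klf13, Klf9, Klf6, Klf7 and the other 6 genes in the summed counts of the 10 genes, 1 bar per library, in percent. The Klf13 part spans 45.1% to 85.7% of the PiC-PrL bars and 20.2% to 36.8% of the male PiC-MeA bars. In the female PiC-MeA bars it spans 45.5% to 71.6%, inside the PiC-PrL range.

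Klf9 and Klf16 share the Sin3-binding type with Klf13. Klf9, which thyroid hormone and glucocorticoids induce and which acts in maturation of hippocampal neurons (chromosome 19, 23141226 to 23168134), was at 125, 673, 321 and 387 CPM in female PiC-PrL and 109, 207, 203 and 109 CPM in male PiC-PrL replicates. It was at 80.8, 152 and 44.9 CPM in female PiC-MeA and at 71.8, 110 and 150 CPM in male PiC-MeA replicates. Female PiC-PrL replicates 2, 3 and 4 were above all other libraries, and all pairs of groups overlapped. The projection difference of Klf9 was -2.02 ± 0.59 in females, -0.49 ± 0.56 in males and -1.25 ± 0.41 averaged (edgeR adjusted p = 0.403, 0.76 and 0.0921), while DESeq2 called it in females and averaged. Klf16, a GC-box repressor (chromosome 10, 80567124 to 80577321), was at 105, 43.3, 72.9 and 20 CPM in female PiC-PrL and 49.3, 28.7, 8.81 and 2.12 CPM in male PiC-PrL replicates. In PiC-MeA it was at 37, 0.302 and 26.5 CPM in females and 23.2, 13.1 and 4.53 CPM in males. Every pair of groups overlapped for Klf16, and the averaged projection change was -1.10 ± 1.00 (edgeR adjusted p = 0.71). Klf10, of the same type but not among the 10, was counted in all 14 libraries at 4.78 to 341 CPM, and Klf11 reached 10 counts in 6 libraries. Klf14 was listed at 0 counts in every library.

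The activators Klf6 and Klf7 were found in every tube. Klf6, an early-induced factor that supports axon growth (chromosome 13, 5861482 to 5870394), was at 143, 105, 59.5 and 246 CPM in female PiC-PrL and 269, 76.3, 416 and 61.8 CPM in male PiC-PrL replicates. It was at 125, 136 and 65.9 CPM in female PiC-MeA and 96.7, 94.2 and 85.8 CPM in male PiC-MeA replicates. All 4 groups overlapped in level, and the male PiC-MeA libraries lay closest together (92.2 ± 5.7 CPM, SD, n = 3). Klf7, needed for axon outgrowth of olfactory and sensory neurons (chromosome 1, 64029447 to 64122282), was at 103, 183, 57.7 and 52.4 CPM in female PiC-PrL and 44, 18.3 and 26.9 CPM in female PiC-MeA replicates. The female groups did not overlap for Klf7, as for 3.97% of all genes tested in this direction, and the fitted change of -1.73 ± 1.00 did not pass (edgeR adjusted p = 0.58). Male PiC-PrL replicates of Klf7 were at 63.2, 2.77, 34.3 and 136 CPM and male PiC-MeA replicates at 89.6, 41.3 and 43.5 CPM, which overlapped. Exons of Klf7 overlap those of 2 genes on the opposite strand, Gm13748, which had 0 counts, and Gm26649, for which no count was matched. Klf5, a factor of epithelial and stem cell growth (chromosome 14, 99298691 to 99315036), had 51, 2, 13 and 497 counts in female PiC-PrL and 0, 3, 23 and 1235 counts in male PiC-PrL replicates. It had 10, 0 and 3 counts in female PiC-MeA and 23, 37 and 86 counts in male PiC-MeA replicates. In each PiC-PrL group replicate 4 held most of the Klf5 counts.

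The CtBP-binding repressors were uneven from tube to tube. Klf12 (chromosome 14, 99870632 to 100284679), first known as a repressor of the AP-2 alpha gene, was at 15, 166, 41.5 and 79.4 CPM in female PiC-PrL, 1.02, 4.31, 53.1 and 0.645 CPM in male PiC-PrL, 27.8, 40 and 29.4 CPM in female PiC-MeA and 48.5, 95.7 and 127 CPM in male PiC-MeA replicates. In PiC-MeA every male library was above every female library, as was the case for 17.4% of all genes tested, and 3 of the 4 male PiC-PrL libraries were below all other libraries. Klf3, a repressor of blood and fat cell genes (chromosome 5, 64803388 to 64832901), had 97, 1512, 90 and 60 counts in female PiC-PrL and 0, 3, 8 and 0 counts in male PiC-PrL replicates. Every male PiC-PrL library was below every female one for Klf3, as for 2.02% of all genes tested, and the difference did not pass (edgeR adjusted p = 0.283). Klf3 had 156, 2 and 68 counts in female PiC-MeA and 134, 2 and 97 counts in male PiC-MeA replicates. Exons of Klf3 overlap those of Gm20033 on the opposite strand, which held 1118 counts over 9 libraries, and without strand the reads of the overlap cannot be told apart. Klf8, on the X chromosome (153237466 to 153396132), had 1, 1444, 0 and 4 counts in female PiC-PrL and 3, 0, 0 and 1 counts in male PiC-PrL replicates. It had 30, 238 and 5 counts in female PiC-MeA and 209, 380 and 163 counts in male PiC-MeA replicates. Every male PiC-MeA library was above every male PiC-PrL library for Klf8, as for 19.1% of all genes tested. The change did not pass (edgeR adjusted p = 0.0987). DESeq2 called it, as it did 14.8% of all genes with an adjusted p. An edgeR fit of the male libraries alone also called Klf8, among 987 genes against 88 in the main fit. A single tube, female PiC-PrL replicate 2, held the highest counts of both Klf3 and Klf8. The same tube also held the highest counts of Klf7 (1996), Klf9 (7323) and Klf12 (1804), while the other members peaked in other tubes. Its TMM factor was 0.757, and mitochondrial genes took 12.2% of its counts.

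Klf15, which glucocorticoids induce and which controls amino acid and glucose metabolism (chromosome 6, 90462576 to 90475238), had the lowest median CPM per kb of the 10, though its mean over the 14 libraries (2.99 CPM per kb) was above those of Klf3 (1.27) and Klf5 (2.38). It had 0, 0, 0 and 101 counts in female PiC-PrL, 0, 1078, 1 and 1 counts in male PiC-PrL, 0, 1 and 0 counts in female PiC-MeA and 38, 193 and 24 counts in male PiC-MeA replicates. Klf15 had 0 counts in 6 libraries, and by counting error alone a count of 0 allows up to 3 counts. Libraries of similar depth differed far more: male PiC-PrL replicates 1 and 2, with 15225936 and 14274982 total counts, held 0 and 1078 counts of Klf15. Why these tubes differed was not tested. The 3 male PiC-MeA libraries, in which more genes were counted, all held Klf15. In PiC-MeA, Klf5 and Klf15 were higher in every male than in every female library, as Klf12 was (17.4% of all genes tested), and the part of that excess in the Klf5, Klf8, Klf12 and Klf15 counts was not tested.

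Between the projections, Klf13 was the only gene of the 10 that passed in the edgeR fit, in males and averaged over the sexes. In females all 10 fitted changes were negative, beside 7569 of the 14599 genes tested, with a median of -1.88 against -0.06 over all genes tested. Under other settings of the fit, the female change reached 5.73 for Klf8, 1.81 for Klf15 and 0.09 for Klf6. Those of Klf3, Klf5, Klf7, Klf9, Klf12, Klf13 and Klf16 stayed negative, though that of Klf3 shrank to -0.10 and that of Klf12 to -0.48. In males 7 were negative, beside 6807 of all genes, that of Klf7 close to 0 (-0.01). The other 3, Klf3, Klf8 and Klf12, were positive. The male median was -0.59 against 0.16 over all genes. Averaged over the sexes 7 were negative, beside 6950 of all genes, with a median of -0.98 against 0.07. The 4 tested family genes that were not picked went the other way in females, with all 4 changes positive and a median of 1.56. Of these 4, 2 were positive in males (median 0.78) and 3 averaged over the sexes (median 2.69). The 2 projection contrasts use different libraries, but the averaged contrast shares them all. The SE of Klf3, Klf5, Klf8 and Klf15 in these contrasts was at least 2.16 in either sex on the log2 scale, against 0.37 to 0.40 for Klf13.

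**Figure D4:**
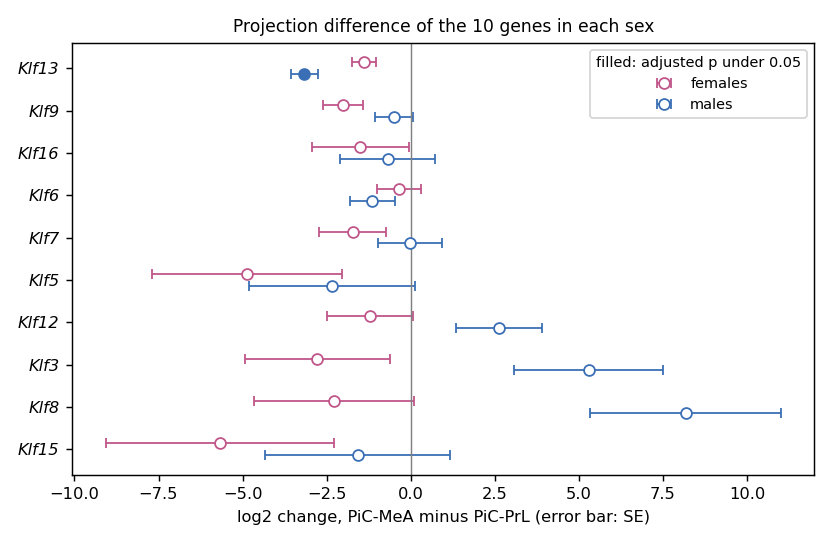
Fitted log2 change from PiC-PrL to PiC-MeA of each gene in females and males (points) with its SE (bars); a filled point passed an adjusted p of 0.05 over all genes. Only the male value of Klf13, at -3.16, is filled, and the bars of Klf3, Klf5, Klf8 and Klf15 are the widest.

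Sex was the other comparison the groups allow, and the series names sex-dependent expression as its subject. None of the 10 genes passed in PiC-PrL, in PiC-MeA or averaged over the projections by edgeR, where 0%, 0% and 0.0137% of all genes passed. At an unadjusted p under 0.05 there were 3 of 10 in PiC-PrL, 1 in PiC-MeA and 2 averaged, beside 14.3%, 12.4% and 10.7% of all genes. Of the 8 genes with an adjusted p, DESeq2 called 2 (Klf3 and Klf8), 0 and 0, where it called 7.59%, 5.68% and 4.92% of all genes. From female to male PiC-PrL neurons, 6 of the 10 changes were negative (median -1.0, against -0.02 over all genes) and 4 positive. Over all 14599 genes tested, 7386 were negative. The unadjusted p was under 0.05 for Klf3 (-7.55 ± 2.41), Klf8 (-8.67 ± 2.86) and Klf9 (-1.26 ± 0.52), each with an edgeR adjusted p of 0.283 to 0.289. The Klf8 value rests on 1 female library, since the other 3 held 0 to 4 counts, and without female PiC-PrL replicate 2 it was -0.67. Without the same library the Klf3 value was -4.87. In PiC-MeA 7 changes were positive (median 0.75, against 0.12 over all genes), beside 7818 of all genes. Klf13 was lower in all 3 male libraries (-1.15 ± 0.38). Such a separation downward was seen for 8.95% of all genes. The PiC-PrL sex change of Klf13 was 0.62 ± 0.33, and the difference between its sex changes was -1.77 ± 0.51 (edgeR adjusted p = 0.152). None of the 10 passed for that difference, where 0% of all genes did, and 4 had an unadjusted p under 0.05, beside 15.6% of all genes. DESeq2 called 3 of 8 for it, Klf3, Klf8 and Klf13, beside 8.46% of all genes.

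Genes that work with the family were counted in lists written with earlier results of these data known. Their counts at an unadjusted p under 0.05 in the averaged contrasts stand beside 17.4% of all genes for projection and 10.7% for sex. Their DESeq2 calls stand beside 10.9% and 4.92% in those contrasts, 4.59% and 14.8% for projection in females and males, 7.59% for sex in PiC-PrL and 8.46% for the interaction. Sp factors bind the same boxes: 5 of 9 were tested and none passed in any of the 7 contrasts by edgeR. Averaged over the other factor, 0 Sp genes had an unadjusted p under 0.05 for projection and 2 for sex. Over the 7 contrasts DESeq2 called Sp2 for sex averaged and Sp1 for sex in PiC-PrL. In the averaged projection contrast Sp2 (-1.76 ± 1.67) and Sp1 (1.47 ± 1.45) had the smallest p among them, and in the averaged sex contrast Sp9 (5.83 ± 1.80) and Sp2 (5.96 ± 2.04). Sp9 had at most 21 counts in any library. Of 12 cofactor genes, among them the Sin3 scaffolds, the CtBP proteins, histone deacetylases and acetyltransferases, 11 were tested and none passed in any contrast by edgeR. In the averaged contrasts 2 had an unadjusted p under 0.05 for projection and 0 for sex. DESeq2 called Ctbp1 for projection in females and averaged, and Kat2b for projection in males, sex in PiC-PrL and the interaction. The corepressor gene Ctbp1 was at 92.3 ± 49.1 CPM (SD, females) and 78.2 ± 59 CPM (males) in PiC-PrL and at 15 ± 11.2 and 38.5 ± 3.31 CPM in PiC-MeA libraries (averaged -1.81 ± 0.62, edgeR adjusted p = 0.113), and the acetyltransferase gene Kat2b had 2.83 ± 1.34 (adjusted p = 0.281). The smallest p for sex among the cofactors belonged to Hdac3 (-1.11 ± 0.77) and Crebbp (-0.53 ± 0.41). The Sin3 scaffold genes were at 0.0694 to 17.6 CPM (Sin3a) and 13.8 to 171 CPM (Sin3b) over the 14 libraries.

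Hormone receptors that act on Klf9 or Klf15 and genes that glucocorticoids induce made up a list of 10, all tested, and none passed in any contrast by edgeR. In the averaged contrasts 2 had an unadjusted p under 0.05 for projection and 0 for sex. DESeq2 called Thra for projection in females, in males and averaged, and no other gene of the list in any contrast. The thyroid hormone receptor gene Thra was at 122 ± 40.7 CPM (SD, females) and 75.2 ± 16.4 CPM (males) in PiC-PrL, and at 32.7 ± 3.82 and 28 ± 14.7 CPM in PiC-MeA libraries. Its averaged projection change was -1.66 ± 0.50 (edgeR adjusted p = 0.0715), and every PiC-MeA library (at most 43.4 CPM) was below every PiC-PrL library (at least 54.3 CPM), as for 0.61% of all genes tested. Thrb, the other thyroid hormone receptor gene, had -0.96 ± 0.36 (adjusted p = 0.154). The glucocorticoid receptor gene Nr3c1 was at 85 ± 70.2, 92.6 ± 64.4, 128 ± 38.5 and 157 ± 75.9 CPM in female PiC-PrL, male PiC-PrL, female PiC-MeA and male PiC-MeA libraries, all overlapping. For sex the smallest p in this list belonged to Per1 (-1.26 ± 1.07) and Tsc22d3 (0.97 ± 0.87). Of the 7 family genes that were not picked, 4 were tested and none passed in any contrast by edgeR. In the averaged contrasts 2 of them had an unadjusted p under 0.05 for projection and 0 for sex. DESeq2 called Klf4 for projection in males and none in the other 6 contrasts. Klf4 (4.94 ± 1.80) and Klf2 (4.90 ± 1.77) had the smallest p between projections (edgeR adjusted p = 0.142 and 0.148), and also between sexes (-2.35 ± 1.64 and 2.38 ± 1.47). Both had low counts: Klf2 had 0 counts in all female PiC-PrL libraries, and its highest value was the 126 counts of 1 female PiC-MeA library.

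Levels were compared with those of Klf13 by Pearson's r of log2(CPM + 1) over the 14 libraries. The comparison covered 8325 other tested genes with a mean of at least 10 CPM, without predicted genes (Gm or Rik names) and pseudogenes. The 5 genes most like Klf13 are named here. They were Dusp3, a phosphatase acting on MAP kinases (r = 0.974), Gnb1, a G protein beta subunit (r = 0.965), Pfdn2, a subunit of the prefoldin chaperone (r = 0.963), Nmt2, an N-myristoyltransferase (r = 0.959), and Vps28, a subunit of the ESCRT-I complex (r = 0.956). The libraries share their scaling and fall apart by projection, and r describes that order. Dusp3 stood at 931 ± 71.1 CPM (SD, females) and 1375 ± 264 CPM (males) in PiC-PrL, and at 370 ± 137 and 121 ± 26.9 CPM in PiC-MeA libraries, the same order of groups as Klf13. Gnb1 stood, in that order, at 6805 ± 2065, 8662 ± 2890, 2166 ± 417 and 1385 ± 305 CPM. Among the other 9 genes Klf9 had the highest r with Klf13 (0.45) and Klf8 the lowest (-0.56).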

How the data were processed

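The authors deposited raw read counts per gene, 1 column per library, without pooling or normalisation. The tools Trimmomatic 0.39, the aligner HISAT2 2.2.1, SAMtools, the counter featureCounts 2.0.1 and build mm10 are listed, per the submitters' processing notes. Annotation release, strand setting and the treatment of shared reads were not given in the sources used here. Positions and exon lengths came from GENCODE M21, in which 54349 of 55401 identifiers had the same version. The members and all lists were chosen with earlier results of these data known.

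From these counts, genes were kept by filterByExpr (minimum count 10, minimum total 15), scaled by TMM and fitted in edgeR 4.0.16 (R 4.3.3) with robust quasi-likelihood, 1 mean per group over all 14 libraries, and 7 contrasts: sex and projection within each level of the other, both averaged, and their interaction. Calls used a Benjamini-Hochberg adjusted p of 0.05 over 14599 genes, and the SE is the change divided by the square root of F. All 10 members were named, with, per related list, genes that passed or the 2 of smallest p; these are given for the averaged contrasts, and other list genes, such as Sin3a, Sin3b and Nr3c1, were chosen after their values were seen. Alternatives were DESeq2 size factors, no filter, the DESeq2 1.42.0 Wald test, a replicate block, fits of only the groups compared, fits without male PiC-MeA libraries and leaving out each library. Simulated counts with large set changes served only to check that the averaged projection fit ran as written, and no result here rests on them.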

Additional observations from a re-analysis of the deposited data

Results flagged for a closer look

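Within groups of 4 libraries, 7 of the 20 sets of member values had 1 library far above the rest by Dixon's criterion at 95%. Its rate of 1 in 20 holds for independent, normally spread values, which counts with many zeros from the same tubes are not. The rule was not run over all genes, so the 7 are a list of tubes to look at. Groups of 3 were not checked. In female PiC-PrL neurons these were Klf3 (139 CPM) and Klf8 (133 CPM) in replicate 2, and Klf5 (34.8 CPM) and Klf15 (7.07 CPM) in replicate 4. In male PiC-PrL neurons they were Klf15 in replicate 2 (87.7 CPM), Klf12 in replicate 3 (53.1 CPM) and Klf5 in replicate 4 (114 CPM). All 7 were high values, 6 of them of the 4 genes with the lowest medians, and none concerned Klf13, Klf9, Klf6, Klf7 or Klf16.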

How the results depend on the processing

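The count of the 10 genes that passed stayed at its value (Klf13 in the male and averaged projection contrasts, none elsewhere) with DESeq2 size factors, without a filter, with a replicate block and without any 1 library. Without the male PiC-MeA libraries only sex in PiC-PrL and projection in females were fitted, and 0 genes passed there, as in the main fit. The Klf13 calls need those libraries, so that setting cannot check them. The DESeq2 Wald test called more: 2 for sex in PiC-PrL (Klf3, Klf8), 2 for projection in females (Klf9, Klf13), 3 for projection in males (Klf3, Klf8, Klf13), 2 for projection averaged (Klf9, Klf13) and 3 for the interaction (Klf3, Klf8, Klf13). A fit of only the male libraries called 2 between projections (Klf8, Klf13), where 987 genes passed against 88 in the main fit. The filter was applied anew in that fit. The cause was not tested. The log2 change of Klf13 with 1 library left out was -3.49 to -2.86 between projections in males, -1.72 to -1.15 in females and -2.60 to -2.12 averaged. Over all genes the counts called moved more: 120 between projections averaged became 83 with size factors, 452 without a filter, 43 with the replicate block, 1492 with DESeq2 and 39 to 128 with a library left out. Between projections in males 88 became 159 without a filter, 38 with the block, 987 with only the male libraries, 2022 with DESeq2 and 20 to 139 with a library left out. From 0 genes, no filter and DESeq2 gave 46 and 628 between projections in females, 38 and 1017 for sex in PiC-PrL, 45 and 777 for sex in PiC-MeA and 84 and 1156 for the interaction, and for sex averaged 2 became 17 and 647. Same-numbered libraries did not deviate together (r of residuals -0.0394 to 0.0428 over 19 pairs), and the replicate block left 1 member called in the male and in the averaged projection contrast. Of 1314 changes of single genes under the alternatives, 47 moved by an amount that was large against the SE of the change. Where the SE was wide, sizeable shifts were not counted: for sex in PiC-PrL, Klf5 went from 1.53 (SE 2.16) to -0.13 with the replicate block. The change of Klf8 between projections in females turned to 5.73 without female PiC-PrL replicate 2, and that of Klf15 in males to 6.89 without male PiC-PrL replicate 2. Klf5 and Klf15 had no DESeq2 adjusted p. By counting error alone a count of 0 allows up to 3 counts in a library. Libraries of similar depth differed more widely than that for the low genes: Klf8 had 1444 counts in female PiC-PrL replicate 2 and 0 in replicate 3.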
